A study of Mus musculus with 4 samples.

Results

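Tumor necrosis factor (TNF), related ligands, both TNF receptors, the TNF sheddase, receptor-proximal adaptors and TNF-responsive genes were followed in an immortalized macrophage culture from the bone marrow of *MK2*-KO mice. The 10 members, *Tnf*, *Ltb*, *Tnfsf9*, *Tnfrsf1a*, *Tnfrsf1b*, *Adam17*, *Ripk1*, *Tradd*, *Traf1* and *Tnfaip2*, were chosen by symbol, and each matched 1 of the 55356 genes of the deposited table. All cells lacked endogenous MK2 and had been transduced with a retroviral vector and sorted for GFP. The vector was either empty apart from *GFP* (i*MK2*-KO +*GFP*, in short +*GFP*) or held *MK2* as well (i*MK2*-KO +*MK2*, in short +*MK2*, wild type in the genotype label), so that each genotype is a single line and the reintroduced *MK2* is driven by the vector. Both lines were left untreated (UT) or received recombinant murine IL-1α (5 ng/mL, 1 h), which gave 4 libraries, 1 per condition. The study asked how MK2 affects NF-κB signaling in macrophages at rest and with IL-1α.

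TNF is made as a membrane protein by activated macrophages and is released when the protease ADAM17 cuts it from the surface. It binds TNFR1 (*Tnfrsf1a*), which recruits TRADD and RIPK1 and leads to NF-κB activation or cell death, and TNFR2 (*Tnfrsf1b*), which binds TRAF proteins and is found mainly on immune cells. *Tnf* mRNA carries an AU-rich element, through which the kinase pathway of p38 and MK2 is known to control its stability and translation.

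With 1 library per condition, differences cannot be checked against replicates and p-values are not given. Values are normalized counts as deposited. Each ratio compares 2 libraries on the log2 scale, with 1 added to both values, and is followed by its 95% Clopper-Pearson interval, which covers counting error only and takes each normalized count as 1 read. Higher, lower, rose and fell are used where this interval excludes 0. The libraries summed to between 24891906 and 25733071 normalized counts. *Mapkapk2*, the gene of MK2, had 561 and 1585 normalized counts in UT and IL-1α-treated +*GFP* cells against 38357 and 38141 in +*MK2* cells, as the labels state. All 8 macrophage markers were expressed, with sums of 112976 to 123245, whereas the markers of T cells, B cells, neutrophils, fibroblasts, epithelial and mast cells summed to between 0 and 14 per cell type and library. The sums hide that single macrophage markers differed between the lines. In UT and IL-1α-treated cells, *Mertk* had 421 and 364 in +*GFP* against 1093 and 1168 in +*MK2* cells. *Adgre1* had 3978 and 4140 against 6832 and 6330, and *Fcgr1* 1226 and 1194 against 2108 and 2216. The other way went *Csf1r* (23227 and 27561 against 20290 and 21305) and *Spi1* (4782 and 5524 against 4551 and 4663). In these bulk samples, fewer expressing cells and less RNA per cell cannot be told apart.

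In +*GFP* cells, 5 of the 10 members rose at least 2-fold after IL-1α, namely *Tnf*, *Tnfsf9*, *Tnfrsf1b*, *Traf1* and *Tnfaip2*. The same fold was reached upward by 2.24% of all 12483 genes with a mean of at least 10. In +*MK2* cells, only the low counts of *Traf1* passed 2-fold upward, where 0.889% of all genes did, and this ratio lay within counting error. After IL-1α the same 5 members were at least 2-fold higher in +*GFP* than in +*MK2* cells (4.15% of all genes), while in UT cells *Traf1* was the only member past 2-fold (3.5% of all genes). *Traf1* reached a mean of 10 only through the library of IL-1α-treated +*GFP* cells. Without it and *Ltb*, 4 of 8 members passed 2-fold upward in the +*GFP* response and between the lines after IL-1α. In UT cells between the lines and in the +*MK2* response, 0 of the 8 did. Of the 9 members with a mean of at least 10, which leaves out *Ltb* with 1 to 6 normalized counts, 0 were at least 2-fold lower in the 4 comparisons, beside 5.23% of all genes between the lines in UT cells, 5.56% after IL-1α, and 1.58% and 1.03% in the responses of +*GFP* and +*MK2* cells. The median log2 ratio over the 10 members was 0.79 for the response of +*GFP* and 0.07 for that of +*MK2* cells, beside 0.01 in both lines over all genes. Between the lines it was 0.11 in UT cells and 1.22 after IL-1α, beside 0.02 and 0.03 over all genes. Gene by gene, the +*GFP* response exceeded the +*MK2* response by a median of 0.70. Whether the responses differ between the lines was not tested, since no condition has a second library. Of the members, 7 had their highest value in IL-1α-treated +*GFP* cells, as had 32.4% of all genes. This order takes no account of counting error, and *Tradd* is among the 7 with 525 against 507 in UT +*GFP* cells, within counting error.

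**Figure D1:**
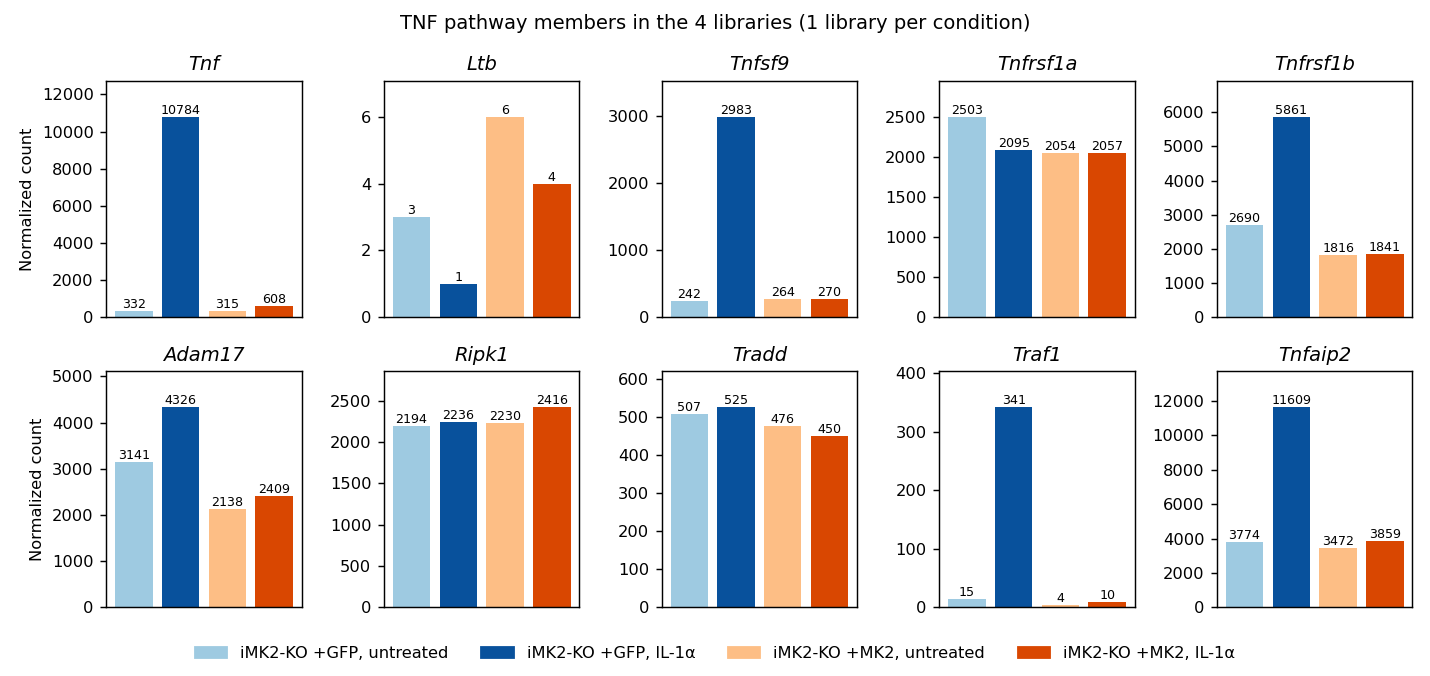
Normalized counts of the 10 members (vertical axes, each with its own scale from 0) in the 4 libraries, 1 bar per library, light bars for untreated and dark bars for IL-1α-treated cells, blue for +GFP and orange for +MK2. *Tnf*, *Tnfsf9*, *Traf1*, *Tnfrsf1b* and *Tnfaip2* stand out in IL-1α-treated +GFP cells, whereas *Ripk1*, *Tradd* and *Tnfrsf1a* are of similar height in all libraries and *Ltb* does not exceed 6.

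Among the ligands, *Tnf* (ENSMUSG00000024401.15, chromosome 17, 35418357 to 35420983) had 332 normalized counts in UT and 10784 in IL-1α-treated +*GFP* cells, and 315 and 608 in +*MK2* cells. The UT libraries were alike within counting error, and IL-1α-treated +*GFP* cells stood far above the other libraries. *Tnf* rose 32.4-fold in +*GFP* cells, a log2 ratio of 5.02 (4.86 to 5.18), which ranked 11 among the 12483 genes. It rose 1.93-fold in +*MK2* cells, a log2 ratio of 0.95 (0.75 to 1.15) at rank 118. The line ratio of *Tnf* was 0.08 (-0.15 to 0.30) on the log2 scale in UT cells, so no basal difference was detectable at this depth, and 4.15 (4.03 to 4.27) after IL-1α. The log2 responses differed by 4.07.

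The 3′ untranslated region of *Tnf* (764 bases in the GENCODE transcript) holds 8 copies of the pentamer ATTTA, the core of AU-rich elements, and 5 copies of the nonamer TTATTTATT, counting overlapping copies. Its densest stretch is shown because the p38 and MK2 pathway is known to act through this element. Whether the element bears on the *Tnf* values of these libraries was not tested. The stretch lies at chr17:35199679-35199708 of GRCm38 on the minus strand and is written 5′ to 3′ as DNA, with the pentamers in capitals.
*Tnf* AU-rich stretch: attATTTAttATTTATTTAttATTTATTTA

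Of the 10 members, 7 hold the pentamer in this region and 2, *Tnf* and *Ripk1*, hold the nonamer. Among 10505 genes that have a 3′ untranslated region and reach the minimum mean of 10, 66.1% hold the pentamer and 7.16% the nonamer. *Ripk1*, with 7 pentamers and 2 nonamers over 4365 bases, had between 2194 and 2416 normalized counts. *Tnfsf9*, *Tnfrsf1b* and *Tnfaip2* hold 2 pentamers each and *Traf1* holds 3, none of them with the nonamer.

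*Ltb*, which encodes lymphotoxin β, a membrane ligand that forms a heterotrimer with lymphotoxin α, lies 3061 bases from *Tnf* in the deposited table (ENSMUSG00000024399.6, chromosome 17, 35413415 to 35415296). It had 3 and 1 normalized counts in UT and IL-1α-treated +*GFP* cells and 6 and 4 in +*MK2* cells. These values were near or below the limit of 3 counts that a count of 0 allows, and all comparisons lay within counting error. *Lta*, on the other side of *Tnf* at 1158 bases, was listed at 0 to 3. Within 50000 bases of *Tnf*, 6 other genes had a mean of at least 10, and their log2 responses in +*GFP* cells ranged from -0.63 to 0.92, all below that of *Tnf*.

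The 250 bases before the start sites of these neighbouring ligand genes are shown, since *Tnf* rose and *Ltb* was barely detected (RefSeq, GRCm38.p6; *Tnf* at chr17:35202008-35202257, minus strand; *Ltb* at chr17:35194257-35194506, plus strand). Capitals mark, on either strand, the κB consensus in *Ltb* and, in *Tnf*, which holds no consensus match, a looser pattern, GGG and CC separated by any 5 bases.
*Tnf* promoter: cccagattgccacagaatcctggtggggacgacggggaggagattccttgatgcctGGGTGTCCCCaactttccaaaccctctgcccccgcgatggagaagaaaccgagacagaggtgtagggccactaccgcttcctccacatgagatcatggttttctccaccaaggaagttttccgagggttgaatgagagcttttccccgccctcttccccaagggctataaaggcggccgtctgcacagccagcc
*Ltb* promoter: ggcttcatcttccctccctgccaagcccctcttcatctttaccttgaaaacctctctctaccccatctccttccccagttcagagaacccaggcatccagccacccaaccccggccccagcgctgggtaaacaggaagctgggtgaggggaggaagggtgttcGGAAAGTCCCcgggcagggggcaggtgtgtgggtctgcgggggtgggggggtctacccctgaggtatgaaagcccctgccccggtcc

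The κB consensus, the binding sequence of NF-κB dimers, was searched on both strands from 250 bases before to 50 bases after the start. It was found in 4.51% of 32851 windows and, among the 8 members with a window, in *Ltb* alone. The looser pattern, which every consensus match also fits, was found in 50.8% of windows and in 7 of the 8 members, *Traf1* being the exception. The AP-1 site TGANTCA occurred in 7.81% of windows and in no member. These shares are per window, over 27025 genes, whereas a member counted if any of its windows held a match, so the measures are not alike. No match says only that these letters are absent from this short window.

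*Tnfsf9* (ENSMUSG00000035678.9, chromosome 17, 57412325 to 57414757) encodes 4-1BBL, a membrane ligand that costimulates T cells. It had 242 normalized counts in UT and 2983 in IL-1α-treated +*GFP* cells, against 264 and 270 in +*MK2* cells. A rise was therefore seen in +*GFP* cells, by 12.3-fold or a log2 ratio of 3.62 (3.43 to 3.82), and the ratio in +*MK2* cells was 0.03 (-0.22 to 0.28). Unlike *Tnf*, *Tnfsf9* thus showed no rise beyond counting error in +*MK2* cells. The line ratio was -0.13 (-0.38 to 0.13) in UT cells and 3.46 (3.29 to 3.65) after IL-1α.

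Both TNF receptors were expressed in all libraries. *Tnfrsf1a* (ENSMUSG00000030341.18, chromosome 6, 125326325 to 125339447), the receptor with a death domain, had 2503 and 2095 normalized counts in UT and IL-1α-treated +*GFP* cells, and 2054 and 2057 in +*MK2* cells. The UT +*GFP* library was the high one and the other libraries were close together. Its log2 ratio between the lines was 0.29 (0.20 to 0.37) in UT cells and 0.03 (-0.06 to 0.11) after IL-1α. Its log2 response was -0.26 (-0.34 to -0.17) in +*GFP* and 0.00 (-0.09 to 0.09) in +*MK2* cells.

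*Tnfrsf1b* (ENSMUSG00000028599.11, chromosome 4, 144940033 to 144973440) had 2690 and 5861 normalized counts in UT and IL-1α-treated +*GFP* cells, and 1816 and 1841 in +*MK2* cells. Both +*GFP* libraries lay above both others. In UT cells the log2 ratio between the lines was 0.57 (0.48 to 0.65), or 1.48-fold, and after IL-1α it was 1.67 (1.59 to 1.75), or 3.18-fold. The receptor gene rose 2.18-fold in +*GFP* cells, a log2 ratio of 1.12 (1.06 to 1.19), beside 0.02 (-0.07 to 0.11) in +*MK2* cells. The quotient of the *Tnfrsf1b* and *Tnfrsf1a* values, whose change between libraries does not depend on gene length, went from 1.07 to 2.80 after IL-1α in +*GFP* cells and stood at 0.884 and 0.895 in +*MK2* cells.

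*Adam17* (ENSMUSG00000052593.17, chromosome 12, 21373510 to 21423633), the gene of the protease that releases TNF and both receptors from the cell surface, had 3141 and 4326 normalized counts in UT and IL-1α-treated +*GFP* cells, and 2138 and 2409 in +*MK2* cells. As for *Tnfrsf1b*, both +*GFP* libraries were above both others. Its log2 ratio between the lines was 0.55 (0.48 to 0.63) in UT cells and 0.84 (0.77 to 0.92) after IL-1α. It rose in both lines, by 0.46 (0.40 to 0.53) in +*GFP* and by 0.17 (0.09 to 0.26) in +*MK2* cells.

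**Figure D2:**
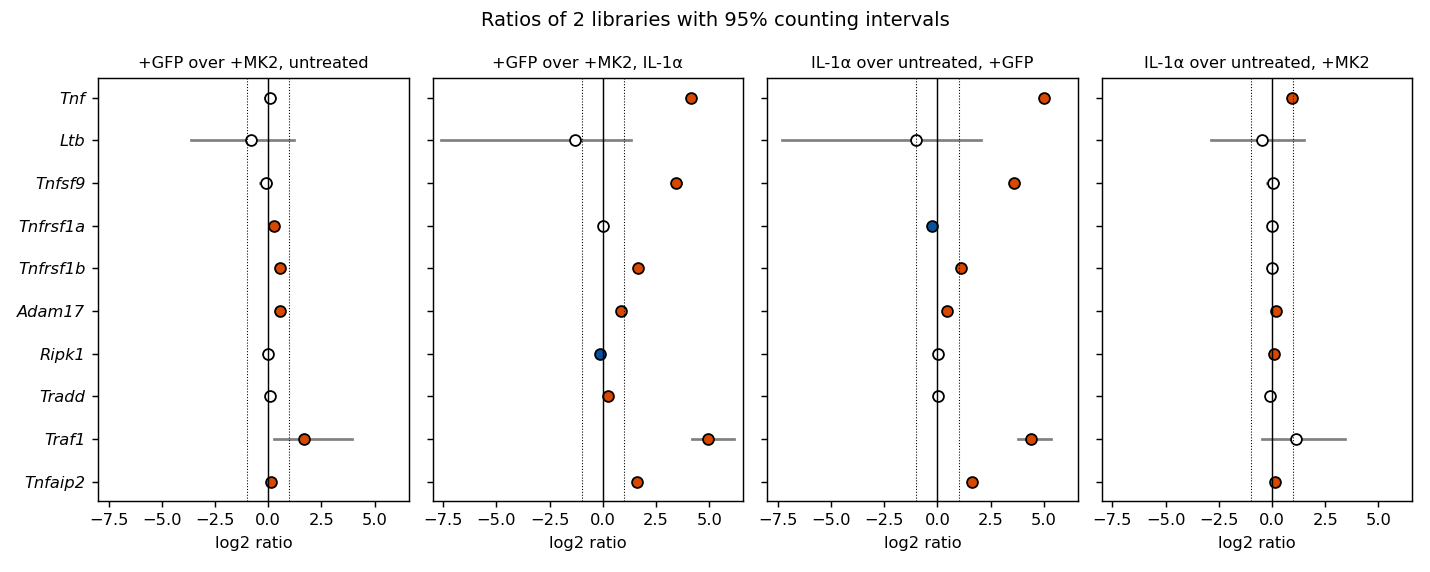
Log2 ratios (horizontal axes) of the 10 members in the 4 comparisons, with 95% counting intervals as grey lines, which are narrower than the points for most genes. Orange points are higher, blue points lower and white points within counting error, and dotted lines mark 2-fold. After IL-1α and for the response of +GFP cells 5 members lie past 2-fold, while the widest intervals belong to *Ltb* and *Traf1*.

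The adaptors recruited by the receptor with a death domain changed little. *Ripk1* (ENSMUSG00000021408.16, chromosome 13, 34186346 to 34221130), a kinase that serves as scaffold for NF-κB activation and can start cell death, had 2194 and 2236 normalized counts in UT and IL-1α-treated +*GFP* cells, and 2230 and 2416 in +*MK2* cells. The IL-1α-treated +*MK2* library was the highest, with a log2 response of 0.12 (0.03 to 0.20) there and of 0.03 (-0.06 to 0.11) in +*GFP* cells. After IL-1α *Ripk1* was lower in +*GFP* than in +*MK2* cells, by a log2 ratio of -0.11 (-0.20 to -0.03). With 0.5 of the reads, both this ratio and the response of *Ripk1* in +*MK2* cells lay within counting error. *Serpinb6a*, which overlaps *Ripk1* in position and had 1762 and 1862 against 2474 and 2471, was also lower in +*GFP* cells, and its part in the *Ripk1* ratio was not tested. *Tradd* (ENSMUSG00000031887.14, chromosome 8, 105984918 to 105991241), the adaptor that binds the death domain of the receptor, had 507 and 525 in +*GFP* cells, and 476 and 450 in +*MK2* cells. The ratio of *Tradd* between the lines was 0.22 (0.04 to 0.41) after IL-1α and lay within counting error both with scaling to *Gapdh* and with 0.5 of the reads. *Ripk1* and *Tradd* stayed below 2-fold in all 4 comparisons.

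*Traf1* (ENSMUSG00000026875.15, chromosome 2, 34831762 to 34851784) encodes an adaptor that binds TNFR2 and other receptors of the family and is itself an NF-κB target. It had 15 and 341 normalized counts in UT and IL-1α-treated +*GFP* cells, and 4 and 10 in +*MK2* cells. Only the library of IL-1α-treated +*GFP* cells was well above the low values, and *Traf1* reached the mean of at least 10 through this library. Its log2 response was 4.42 (3.76 to 5.36) in +*GFP* cells and 1.14 (-0.47 to 3.45) in +*MK2* cells. The line ratio was 4.96 (4.20 to 6.17) after IL-1α. In UT cells 15 against 4 gave 1.68 (0.26 to 3.96), and with 0.5 of the reads behind the values the interval included 0 (-0.33 to 5.27).

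*Tnfaip2* (ENSMUSG00000021281.16, chromosome 12, 111408903 to 111421452), a gene induced by TNF whose product takes part in membrane protrusions, had 3774 and 11609 normalized counts in UT and IL-1α-treated +*GFP* cells, and 3472 and 3859 in +*MK2* cells. It rose in both lines, with log2 ratios of 1.62 (1.57 to 1.67) and 0.15 (0.09 to 0.22), or 3.08-fold and 1.11-fold. Between the lines the ratio was 0.12 (0.05 to 0.19) in UT cells, which lay within counting error with scaling to *Gapdh*, and 1.59 (1.54 to 1.64) after IL-1α. Counted by counting error alone, 6 members rose and 1 fell in +*GFP* cells after IL-1α, beside 20% and 12.3% of all genes. In +*MK2* cells 4 members rose, or 3 with 0.5 of the reads, and 0 fell (11.4% and 8.23% of all genes). Between the lines, 5 were higher and 0 lower in UT +*GFP* cells (30.8% and 26.9%). With 0.5 of the reads, and also with scaling to *Gapdh*, these counts were 4 and 0. After IL-1α 7 were higher and 1 lower (33.7% and 26.3%), or 6 and 0 with 0.5 of the reads and 6 and 1 with scaling to *Gapdh*.

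**Figure D3:**
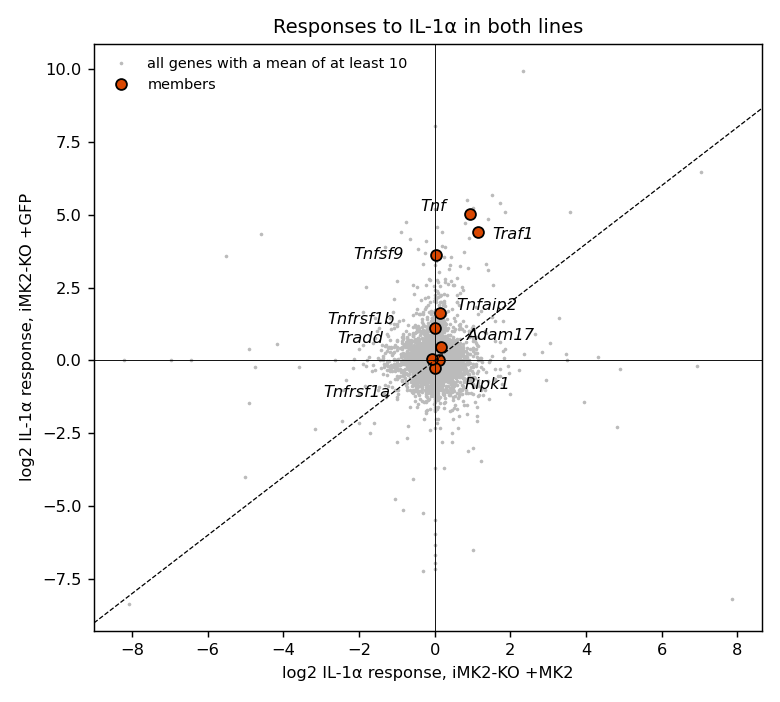
Log2 IL-1α responses of +MK2 cells (horizontal axis) and +GFP cells (vertical axis) for the 12483 genes with a mean of at least 10 (grey) and the 9 members among them (orange), with a dashed line where both responses are equal. *Tnf*, *Traf1* and *Tnfsf9* lie at 5.02, 4.42 and 3.62 on the vertical axis and at 0.95, 1.14 and 0.03 on the horizontal axis.

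The wider pathway was described with 6 lists, which hold the members too and share some genes. The lists were chosen with earlier results of these data known, so shares of all genes beside them describe and do not test enrichment. In the list of TNF target genes (20 genes, some of them shown by the study from these libraries), 17 genes had a mean of at least 10, of which *Cxcl2* and *Traf1* reached it only through the library of IL-1α-treated +*GFP* cells. Without both, all 15 genes rose in +*GFP* cells (20% of all genes) and 11 of them at least 2-fold (2.24% of all genes), beside 17 and 13 with them. The median log2 ratio was 1.78 over these 15 genes, 2.55 over the 17 and 1.75 over all 20, beside 0.01 over all genes of the table with a mean of at least 10. In +*MK2* cells 9 of the 15 rose and 2 fell (11.4% and 8.23% of all genes), with a median of 0.13. *Cxcl2*, a chemokine that attracts neutrophils, went from 0 to 981 normalized counts in +*GFP* cells, at least 327-fold higher when the 0 is set to the floor of 3 counts per library (the counting interval of its log2 ratio starts at 8.05), and from 0 to 4 in +*MK2* cells. *Nfkbie*, an inhibitor of NF-κB, had 821 against 68 after IL-1α. The chemokine gene *Ccl2* was lower in +*GFP* cells both before (1216 against 3868) and after IL-1α (1773 against 3599). Of the 15 genes, 3 were higher and 4 lower in UT +*GFP* cells (30.8% and 26.9% of all genes), and 13 were higher and 2 lower after IL-1α (33.7% and 26.3%).

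Of the 24 genes of TNF receptor complex I, the assembly of adaptors, ubiquitin ligases and kinases at the receptor, 12 rose and 1 fell in +*GFP* cells (20% and 12.3% of all genes), 4 of them rising at least 2-fold (2.24%). In +*MK2* cells 4 rose and 1 fell, near the shares of all genes (11.4% and 8.23%). The 2-fold rises included *Tnfaip3*, which encodes the ubiquitin-editing brake A20 (147 to 3524), the kinase gene *Ikbke* (501 to 1883) and the ubiquitin ligase gene *Birc3* (573 to 1546). *Tnip1*, the partner of A20, had 3296 against 1233 normalized counts between the lines after IL-1α. *Tnfaip3* was the only gene of this list past 2-fold between the lines in UT cells, with 147 against 1147. In UT cells 5 genes were higher and 8 lower in +*GFP* cells, near the shares of all genes (30.8% and 26.9%), and after IL-1α 13 were higher and 6 lower (33.7% and 26.3%).

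For the death-inducing complex II, 6 of 8 genes had a mean of at least 10. *Cflar*, the gene of the caspase-8 inhibitor cFLIP, was the 1 gene that rose in +*GFP* cells, from 2108 to 4202, and the 1 gene higher there after IL-1α (4202 against 2030), while 2 genes fell and 4 were lower. Of all genes, 20% rose and 12.3% fell, and 33.7% were higher and 26.3% lower. In +*MK2* cells 1 gene rose (11.4% of all genes), and in UT cells 1 was higher and 1 lower (30.8% and 26.9%). In the shedding machinery, 4 of 6 genes had a mean of at least 10. *Rhbdf2*, whose product iRhom2 brings ADAM17 to the surface of macrophages, had 951 and 1701 normalized counts in +*GFP* cells and 759 and 811 in +*MK2* cells. These 4 genes were higher in +*GFP* cells after IL-1α (33.7% of all genes), and 3 of them in UT cells (30.8%). In response to IL-1α, 2 rose and 1 fell in +*GFP* cells (20% and 12.3%), and 1 rose and 1 fell in +*MK2* cells (11.4% and 8.23%).

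Most ligands of the TNF superfamily were hardly expressed. Of 18 genes 7 were at 0 in all libraries and 5 had a mean of at least 10. Besides *Tnf* and *Tnfsf9* no ligand rose (20% of all genes in +*GFP* and 11.4% in +*MK2* cells), and the 2 ligands higher in UT +*GFP* cells (30.8% of all genes) were *Tnfsf13* (247 against 178) and *Tnfsf13b* (117 against 63), ligands that act on B cells. After IL-1α, 4 of the 5 ligands with a mean of at least 10 were higher in +*GFP* cells and 0 lower (33.7% and 26.3% of all genes). These 4 were *Tnf*, *Tnfsf9*, *Tnfsf13* (227 against 173) and *Tnfsf13b* (100 against 63). The other one, *Tnfsf18*, had 8 against 19 after IL-1α, within counting error.

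Of 28 receptors of the superfamily, 6 were at 0 in all libraries and 15 had a mean of at least 10. In UT cells 6 were higher and 6 lower in +*GFP* cells (30.8% and 26.9% of all genes), 3 each by at least 2-fold (3.5% and 5.23%). The higher ones were *Tnfrsf4* (19 against 6), which reached the minimum mean only through this UT +*GFP* library, *Fas* (24 against 9) and *Tnfrsf8* (31 against 15), and the lower ones *Eda2r* (23 against 147), *Tnfrsf10b*, a death receptor for TRAIL (73 against 265), and *Tnfrsf21* (157 against 333). After IL-1α 4 were higher and 7 lower (33.7% and 26.3%). *Fas*, the death receptor for Fas ligand, rose from 24 to 236 in +*GFP* cells and had 9 and 15 in +*MK2* cells. *Tnfrsf8* rose from 31 to 64 and *Tnfrsf4* fell from 19 to 6 in +*GFP* cells, where 4 receptors rose and 4 fell (20% and 12.3%). In +*MK2* cells 0 rose and 0 fell beyond counting error (11.4% and 8.23%).

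**Figure D4:**
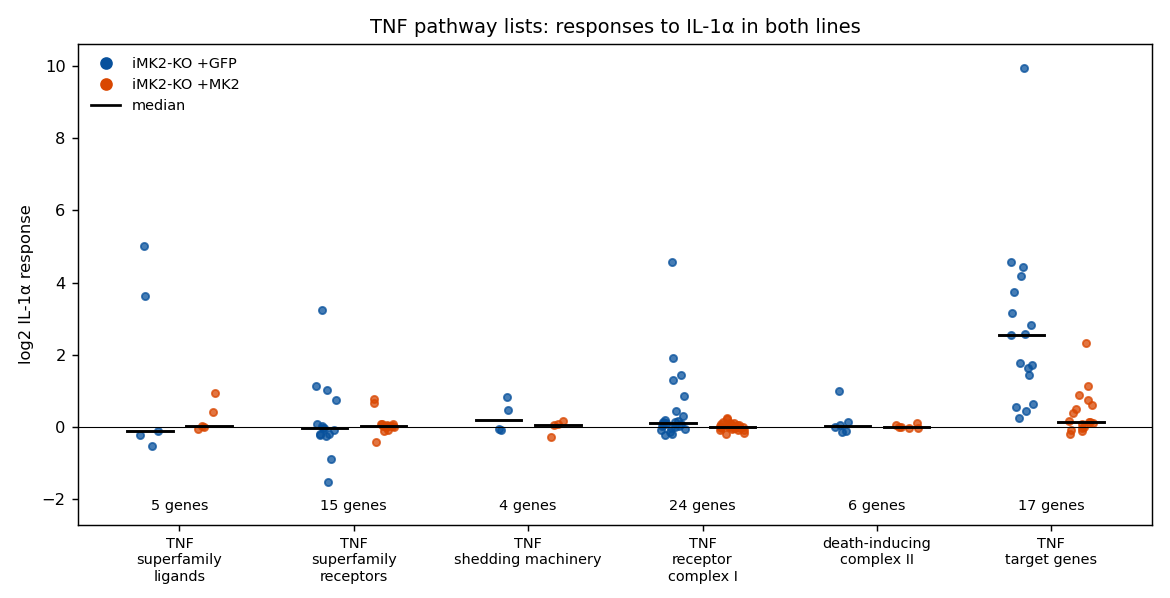
Log2 IL-1α responses (vertical axis) of the genes of 6 lists with a mean of at least 10, 1 point per gene, blue for +GFP and orange for +MK2 cells, with black lines at the medians. The median of the 17 target genes, 2 of which reach this mean only through the IL-1α-treated +GFP library, is 2.55 in +GFP and 0.15 in +MK2 cells, while those of the other lists lie between -0.12 and 0.21, and the top point, *Cxcl2*, starts from 0 normalized counts and depends on the pseudocount.

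The genes nearest to *Tnf* in pattern were sought over the 4 libraries, by the Euclidean distance of log2 values centred on each gene's mean. Before taking log2, 1 was added to each value. The 5 nearest were *Mir155hg*, *Prdm1*, *Nfkbiz*, *Nfkbie* and *Cdc42ep2*, at distances of 0.15 to 0.93. *Mir155hg*, the host gene of a microRNA induced in activated macrophages, had 1 and 74 normalized counts in +*GFP* cells and 1 and 3 in +*MK2* cells. Its values of 1, 1 and 3 do not exceed the floor of 3 counts, so its small distance depends on the 1 added to each value. *Nfkbiz*, the gene of the nuclear protein IκBζ, had 190 and 9664, and 183 and 526. *Prdm1*, the gene of the transcriptional repressor BLIMP-1, had 11 and 314, and 14 and 25. *Mir155hg* and *Cdc42ep2* (7 and 122, and 6 and 7) reached the minimum mean only through the library of IL-1α-treated +*GFP* cells. The likeness of these genes to *Tnf* is what chose them and was not tested.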

How the data were processed

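RNA sequencing of 4 libraries was analyzed. Per the labels, poly(A) RNA was enriched and stranded libraries were read in pairs, while the paper's methods describe single reads after ribo-depletion. The authors deposited 1 score per gene and library, which are whole numbers after normalization by DESeq2. The quantification tool and the DESeq2 version are not given in the sources used here. The submitters' processing notes name GRCm38, but 0 of 10 members lie at their GRCm38 positions in the table, so gene positions are those of the table, whose build is not named. Reference sequences are GRCm38.

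Values were used as deposited, with no count model. Low values pile up as if 1 read were worth between 0.759 and 0.834 normalized counts, an uncertain estimate that was not used. Intervals therefore rest on the normalized counts themselves (scipy 1.17.1) and cover counting error only. Of 55356 genes, 33730 were at 0 in all libraries and 12483 had a mean of at least 10, which *Ltb* missed. The code was tested on simulated data.

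Members and lists were chosen with earlier results of these data known, and the search for AU-rich elements and the window around *Tnf* after values were seen. Named are the members, up to 3 genes in each direction past 2-fold per list and comparison, and the 5 genes nearest to *Tnf*. *Tnfsf13*, *Tnfsf13b*, *Rhbdf2* in UT cells and *Lta* were named after their values were seen. 3′ untranslated regions are those of the GENCODE transcript with the longest coding sequence, and promoters are from RefSeq, with 8 of 10 members matched. *Tnfsf9*, *Adam17* and *Ripk1* overlap other genes with values in the table, and use of strand in counting is not given in the sources used here. Alternatives were scaling to library totals, by a trimmed mean or to *Gapdh*, pseudocounts of 0.5 and 5, other minimum means and 0.5 of the reads.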

Additional observations from a re-analysis of the deposited data

Results flagged for a closer look

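No member moved in opposite directions in the lines beyond counting error. In the wider lists 3 of 102 genes did so after IL-1α, beside 3.52% of all genes with a mean of at least 10. *Birc3*, a ubiquitin ligase of complex I, had log2 responses of 1.43 (+*GFP*) and -0.20 (+*MK2*). *Ccl2* had 0.54 and -0.10, and *Ikbkg*, the gene of the IKK subunit NEMO, had -0.23 and 0.24. The difference between the lines was not tested for these genes.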

How the results depend on the processing

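No paired analysis was possible because each condition has 1 library. No log2 ratio of a member that lay beyond counting error changed sign under the scalings and pseudocounts tried. Without a minimum mean, *Ltb* counted as 1 member lower past 2-fold after IL-1α between the lines and as 1 in the response of +*GFP* cells, in both cases instead of 0. With a pseudocount of 5, 0 members passed 2-fold upward in +*MK2* cells, since the ratio of *Traf1* is made of low counts. With 0.5 of the reads, 0 members were lower beyond counting error between the lines after IL-1α, as the interval of *Ripk1* then included 0. Counts of members and lists without genes carried by 1 library were added after seeing the data. Scaling to *Gapdh* moved the median of all genes by -0.10 between the lines after IL-1α and that of the members to 1.11, so relative to all genes the members hardly moved. The median of the differences between the responses, whose alternatives were chosen after seeing the data, stayed between 0.65 and 0.70. Ratios of *Tnf* after IL-1α between the lines ranged from 4.04 to 4.15 and those of *Traf1* from 4.53 to 5.02. Low counts limit what can be said of *Ltb* and of UT *Traf1*.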
